A study of Homo sapiens with 8 samples.

Results

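Heterogeneous nuclear ribonucleoproteins (hnRNPs) coat newly made transcripts in the nucleus, and 10 major hnRNP genes (HNRNPA1, HNRNPA2B1, HNRNPC, HNRNPD, HNRNPF, HNRNPH1, HNRNPK, HNRNPL, HNRNPM and HNRNPU) were examined in leukemia cells with and without knockdown of PTBP1. The genes were chosen by name, and their transcripts were found by Ensembl identifier in GENCODE v44. They held 337 of the 252562 annotated transcripts that could be assigned, of which 174 had at least 1 count, and all 10 genes were among the 7597 that passed the filter on low counts. MOLM-13, a human acute myeloid leukemia cell line, carried a lentiviral construct with constitutive mCherry and with an shRNA and the ΔLNGFR receptor under a doxycycline (dox) inducible promoter. In 4 libraries the shRNA was directed against PTBP1 (shPTBP1), in the other 4 it was scrambled (shSCR), and both groups received dox for 9 days. The study describes 1 shRNA of each kind, so effects of the construct and of PTBP1 loss cannot be told apart. The labels call the 4 samples of a group biological replicates, and p values measure the spread between them.

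An hnRNP protein binds short single-stranded RNA sequences through RNA recognition motifs, KH domains or RGG repeats, and by doing so it can hide or expose splice sites, hold back introns, and move with the mRNA to the cytoplasm. PTBP1, also named hnRNP I, is itself a member of the class and is known above all as a repressor of exons flanked by pyrimidine-rich sequence. Several hnRNP genes limit their own output by splicing part of their transcripts into forms that nonsense-mediated decay removes, which is why both gene totals and isoform shares are given for each gene. The comparison asked whether the RNA of the other major hnRNP genes, or its splicing, differed after 9 days of PTBP1 knockdown.

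The libraries held 1528449 to 1613342 transcript counts each. PTBP1, the target, had 10, 15, 13 and 23 counts in the shPTBP1 libraries and 65, 90, 64 and 78 in the shSCR libraries, which is -2.26 on the log2 scale (SE 0.22, adjusted p = 7.18e-05 by edgeR), so each library matched its label. Of 9 genes that mark a myeloid leukemia line, 8 had a count in every library, whereas SPI1 had 1 count in all. The least counted of these 8 had 1 to 5 counts per library, and the next 3 to 12. Among genes of lymphoid and erythroid cells, CD3E, CD3D and HBB were at 0 in every library, and CD79A and HBA1 did not exceed 2 counts in any. The summed counts of the myeloid list were 1039 to 1217 in shPTBP1 and 930 to 1002 in shSCR, and the part of this difference in the values below was not tested. In bulk RNA a gene that fewer cells express and a gene with less RNA per cell cannot be told apart. No batch is given in the labels.

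Total hnRNP RNA differed little. None of the 10 genes passed the test at the gene level (edgeR quasi-likelihood test, Benjamini-Hochberg adjusted p under 0.05), where 3.19% of all genes tested were lower and 2.36% higher, 5.54% in either direction. DESeq2 called 0 of 9, leaving the adjusted p of HNRNPL undefined, and limma-voom called 0 of 10. At an unadjusted p under 0.05 there were 2 genes, HNRNPM and HNRNPU, both with the lower mean in shPTBP1, where 19.2% of all genes tested passed that limit. The groups did not overlap in 1 of the 10, HNRNPM, and in 12.7% of all genes tested. The log2 fold change had a median of 0.0035 over the 10 genes and of -0.00014 over all genes tested, and its absolute size a median of 0.10 and 0.17. The 95% interval of the log2 fold change lay within 0.5 of zero in 8 of the 10 genes, against 41.9% of all genes tested. It lay within 0.3 of zero in 5 of the 10, against 15.2% of all genes tested. These 5 (HNRNPA1, HNRNPC, HNRNPF, HNRNPH1 and HNRNPK) had the most counts of the 10, 4089 to 13111 each, and the part of depth in these shares was not tested. The summed normalized count of the 10 genes was 3398 to 3584 CPM (counts per 1000000) in shPTBP1 and 3465 to 3736 CPM in shSCR, or 0.340 to 0.374% of all counts.

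**Figure D1:**
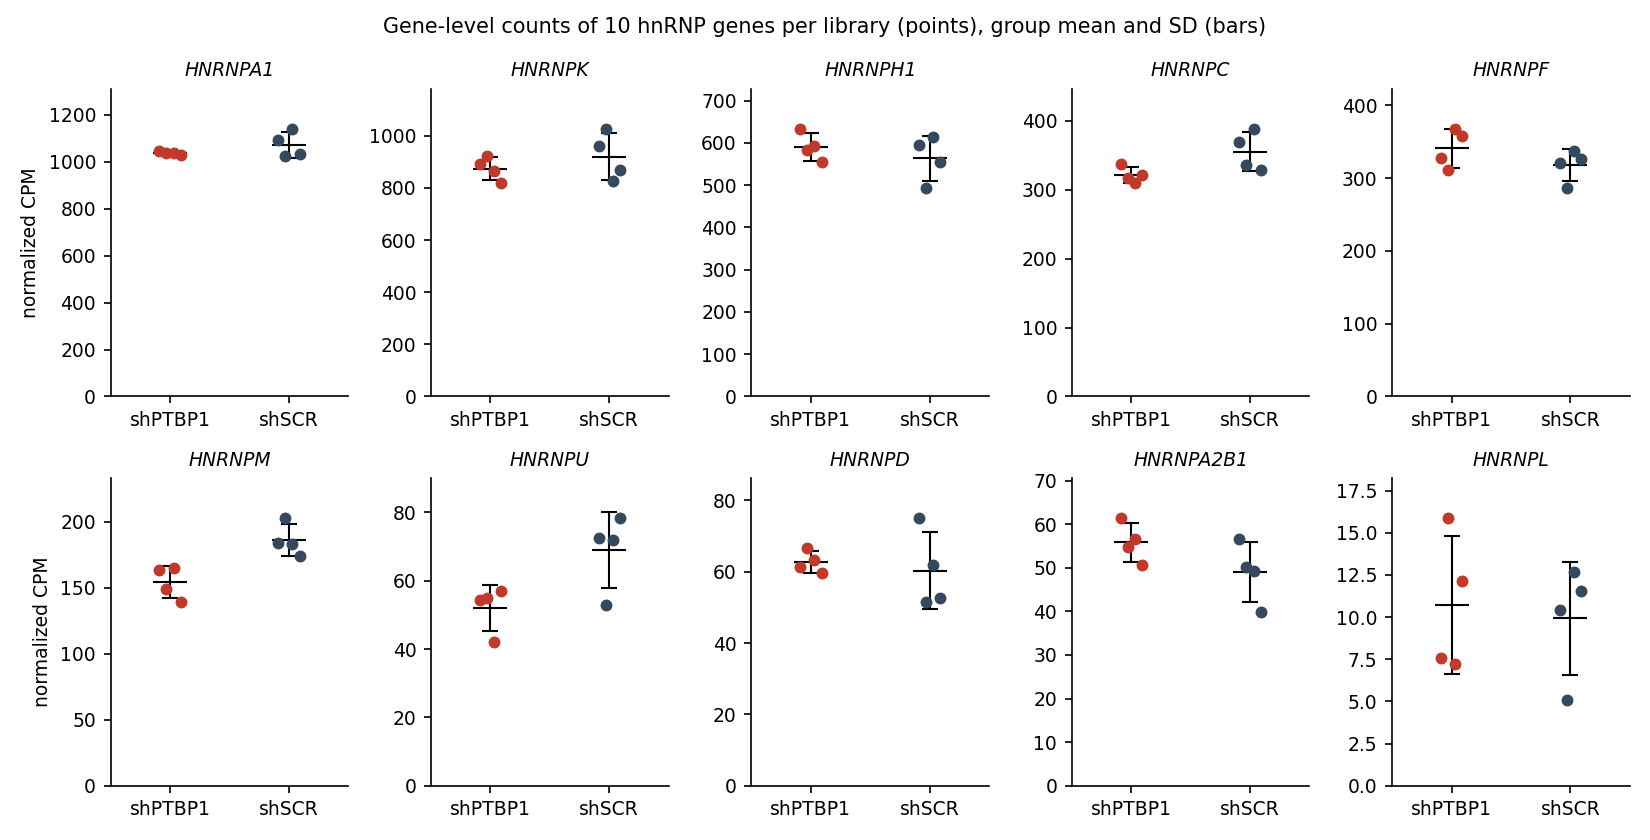
Normalized CPM (TMM) of each hnRNP gene in the 8 libraries (points), with the mean and SD of 4 libraries (bars); each panel starts at 0 and has its own scale. HNRNPM is the 1 gene in which all shPTBP1 libraries (139 to 165 CPM) lie below all shSCR libraries (174 to 202 CPM), and the groups overlap in the other 9.

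Per kilobase of transcript (normalized CPM divided by the mean annotated length of the counted isoforms), HNRNPA1 had the highest level, with 583 ± 29.7 CPM per kilobase in shSCR and 564 ± 4.06 in shPTBP1 (SD, n = 4). HNRNPK (380 ± 36.9 in shSCR) and HNRNPH1 (361 ± 33.9 in shSCR) followed and overlapped in both groups. The mean length of HNRNPH1 rests in part on a short isoform, HNRNPH1-209 (594 nt), whose counts are uncertain, as described below. HNRNPC (180 ± 14.3) lay above HNRNPF (140 ± 9.62) in every shSCR library, although the levels of these genes overlapped in shPTBP1. HNRNPM stood at 74.1 ± 4.77 and HNRNPD at 36.3 ± 6.53 CPM per kilobase in shSCR. HNRNPA2B1 (16.6 ± 2.34) and HNRNPU (16.3 ± 2.63) overlapped in shSCR but not in shPTBP1, where they stood at 18.9 ± 1.51 and 12.3 ± 1.60. HNRNPL had the lowest level, 5.67 ± 1.92 CPM per kilobase in shSCR. HNRNPL rested on 8 to 24 counts per library, HNRNPA1 on 1571 to 1780. Whether counts of these nanopore libraries rise with transcript length was not tested, and the division changes which genes overlap. Without it HNRNPA1 (1024 to 1140 CPM) and HNRNPK (826 to 1026 CPM) overlapped in shSCR. HNRNPK lay above HNRNPH1 (493 to 613 CPM in shSCR) in both groups. HNRNPC (329 to 388 CPM) and HNRNPF (287 to 337 CPM) overlapped in shSCR. In shPTBP1 HNRNPA2B1 (50.6 to 61.4 CPM) and HNRNPU (42.1 to 57.0 CPM) overlapped.

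HNRNPA1 and HNRNPA2B1 encode the A/B core proteins, which bind UAG-containing sequence with tandem RNA recognition motifs and often act as splicing repressors. HNRNPA1 (chr12:54280193-54287088, hg38) measured 1046, 1038, 1038 and 1028 CPM in shPTBP1 and 1094, 1024, 1140 and 1032 CPM in shSCR. The shPTBP1 libraries all fell inside the shSCR range, and the log2 fold change was -0.05 (95% interval -0.16 to 0.07, edgeR adjusted p = 0.693). HNRNPA2B1 (chr7:26171151-26201529) measured 61.4, 54.8, 56.6 and 50.6 CPM in shPTBP1 and 56.5, 50.3, 49.3 and 39.8 CPM in shSCR. Its groups overlapped (log2 fold change 0.19, interval -0.08 to 0.45, edgeR adjusted p = 0.445). The A2 and B1 proteins of HNRNPA2B1 differ by a 36-base exon near the 5′ end, shown here because it separates the named forms. The exon lies at chr7:26197831-26197866 on the minus strand of hg38 and is printed in capitals, 5′ to 3′, with 40 intronic bases on each side in lower case.
HNRNPA2B1 36-base exon: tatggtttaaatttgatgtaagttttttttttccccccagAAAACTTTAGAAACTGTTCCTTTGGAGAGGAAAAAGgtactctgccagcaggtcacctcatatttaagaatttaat
Inclusion, the percentage of counts on transcripts that carry a segment out of those that carry it or splice across it, was 54.6, 50.6, 52.3 and 53.2% for this exon in shPTBP1 and 55.4, 58.2, 55.4 and 53.2% in shSCR. The groups overlapped through shSCR replicate 4, and the difference of -2.89 percentage points had a two-sided exact permutation p of 0.0571, where 0.0286 is the smallest p that 4 against 4 libraries allow. Counts with the exon lay mostly on HNRNPA2B1-203 (286 in all), which is annotated as a target of nonsense-mediated decay. The protein-coding isoforms with the exon, HNRNPA2B1-201 and HNRNPA2B1-202, had 1 and 6 counts. Inclusion is therefore no measure of the balance of the A2 and B1 proteins.

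Isoform shares of both A/B genes were close between groups. HNRNPA1-237, a protein-coding isoform of 1811 nt, took 83.0 ± 0.923% of HNRNPA1 counts in shPTBP1 and 83.0 ± 1.49% in shSCR (SD, n = 4). HNRNPA1-205, annotated as a target of nonsense-mediated decay, took 10.6 ± 0.615% and 10.4 ± 1.10%, and the reference isoform HNRNPA1-202, the MANE Select transcript, 2.01 ± 0.334% and 2.14 ± 0.252%. HNRNPA1-237 carries 18 more coding bases than HNRNPA1-205, from an alternative splice site whose use was 83.3 ± 0.945% and 83.4 ± 1.47%. For HNRNPA2B1, by contrast, most counts fell on isoforms annotated as decay targets or retained introns, 90.6 ± 4.50% in shPTBP1 and 91.9 ± 3.53% in shSCR. Its most abundant isoform, HNRNPA2B1-203, is annotated as a decay target and took 41.9 ± 4.92% and 46.2 ± 2.80% of the counts, followed by the decay-annotated HNRNPA2B1-242 with 13.6 ± 0.358% and 14.3 ± 2.51%, whereas the MANE Select transcript HNRNPA2B1-209 had 5 counts in all. These 5 counts were all in shPTBP1 libraries, and 0 counts fell in the shSCR libraries. How reads that fit several overlapping isoforms, such as reads that cover part of a transcript, were assigned is not given, so the annotated class of an isoform is that of the assigned counts, and the part of read length in these shares was not tested. HNRNPA1 also has 74 annotated processed copies elsewhere in the genome. The authors kept alignments with a mapping quality above 50, and the copies together held 1 count, and how reads that align equally well to a copy and to HNRNPA1 were treated cannot be seen in these values.

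HNRNPD (AUF1), which binds AU-rich elements in the tails of short-lived mRNAs and promotes their turnover, measured 61.4, 66.7, 63.2 and 59.5 CPM in shPTBP1 and 75.0, 51.6, 62.0 and 52.6 CPM in shSCR. The shPTBP1 libraries lay inside the shSCR range, with a log2 fold change of 0.05 (interval -0.22 to 0.32, edgeR adjusted p = 0.867). Its sign turned without shSCR replicate 2 (-0.013) or without shSCR replicate 4 (-0.0044). HNRNPD has an alternative exon of 147 bases that the larger AUF1 protein forms carry, at chr4:82356537-82356683 on the minus strand of hg38. The exon is given in capitals with 40 flanking bases on each side, since it was the 1 segment of HNRNPD that passed the limits on counts and on mean inclusion.
HNRNPD 147-base exon: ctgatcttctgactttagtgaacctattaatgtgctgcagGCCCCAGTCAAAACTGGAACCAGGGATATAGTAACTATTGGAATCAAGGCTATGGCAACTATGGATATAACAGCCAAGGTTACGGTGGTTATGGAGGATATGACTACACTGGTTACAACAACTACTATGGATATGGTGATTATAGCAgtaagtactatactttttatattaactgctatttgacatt
The exon was included in 11.5, 7.92, 18.8 and 7.53% of HNRNPD counts in shPTBP1 and in 16.4, 18.5, 12.9 and 14.8% in shSCR. Of the 4 shPTBP1 libraries 3 were below every shSCR library and shPTBP1 replicate 3 was above all of them, so the groups overlapped (exact permutation p = 0.2). The main isoform HNRNPD-203, which lacks the exon, took 87.3 ± 5.0% and 84.1 ± 2.32% of the counts.

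HNRNPC forms the C-protein tetramer that binds uridine-rich stretches, measures out long transcripts and keeps splicing factors off cryptic exons in Alu elements. HNRNPC measured 338, 318, 310 and 321 CPM in shPTBP1 and 369, 336, 388 and 329 CPM in shSCR. The groups overlapped in 1 shPTBP1 library, replicate 1, which exceeded 2 shSCR libraries, and the log2 fold change was -0.14 (interval -0.29 to 0.01, edgeR adjusted p = 0.281). The C1 and C2 proteins differ by 39 bases, 13 codons, added by an alternative splice site at chr14:21230958-21230996 on the minus strand of hg38. These bases are shown in capitals, between the last bases of the shorter exon and the intron in lower case, because they separate the named forms.
HNRNPC 39-base extension: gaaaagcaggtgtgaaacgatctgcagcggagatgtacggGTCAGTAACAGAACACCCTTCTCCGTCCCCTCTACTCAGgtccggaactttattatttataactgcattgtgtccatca
The longer form was used in 59.4, 58.4, 52.7 and 54.8% of HNRNPC counts in shPTBP1 and in 55.4, 55.6, 58.0 and 57.1% in shSCR, so that the shSCR range lay within that of shPTBP1. Both forms of HNRNPC mRNA were present at similar levels in each library. HNRNPC-210, the leading isoform, took 40.6 ± 2.11% and 39.7 ± 1.41% of the counts and carries the longer form. It was followed by HNRNPC-204 (17.1 ± 0.865% and 17.0 ± 1.29%), HNRNPC-229 (15.1 ± 1.18% and 16.2 ± 0.384%) and HNRNPC-221 (13.3 ± 0.909% and 13.3 ± 0.950%).

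HNRNPF and HNRNPH1 encode closely related proteins with quasi-RNA recognition motifs that bind runs of guanines near splice sites and polyadenylation sites. HNRNPF measured 327, 311, 367 and 358 CPM in shPTBP1 and 320, 287, 337 and 326 CPM in shSCR. HNRNPH1 measured 633, 584, 592 and 554 CPM in shPTBP1 and 595, 493, 613 and 554 CPM in shSCR. In both genes the groups overlapped broadly. The log2 fold change was 0.10 for HNRNPF (interval -0.06 to 0.26, edgeR adjusted p = 0.506) and 0.07 for HNRNPH1 (interval -0.09 to 0.23, edgeR adjusted p = 0.681). HNRNPF-201 took 77.1 ± 0.992% and 76.0 ± 3.30% of HNRNPF counts, and HNRNPF-208 12.9 ± 2.24% and 13.9 ± 1.49%. The first isoform of HNRNPH1, HNRNPH1-209, is a short annotated transcript of 594 nt with 5 exons and took 40.2 ± 1.25% and 40.5 ± 2.01%, ahead of the full-length HNRNPH1-204 (23.4 ± 2.00% and 24.8 ± 1.89%) and HNRNPH1-203 (20.9 ± 1.31% and 20.7 ± 1.86%). Whether reads that cover part of a longer HNRNPH1 transcript were assigned to HNRNPH1-209 cannot be seen in the counts, so this order of isoforms is uncertain. A minor isoform, HNRNPH1-220, was higher in every shPTBP1 library, with 1.82 ± 0.601% against 1.24 ± 0.158% (exact permutation p = 0.0286), but diffSpliceDGE gave it an adjusted p of 1.00. Its share was 2.71% in shPTBP1 replicate 2 and 1.44 to 1.62% in the other shPTBP1 libraries, against at most 1.41% in shSCR. Of all isoforms tested 10.7% had groups that did not overlap. A 50-base exon of HNRNPH1 was included in 88.8 ± 1.13% and 91.2 ± 1.62%, with an overlap between the groups (exact permutation p = 0.0571).

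HNRNPK binds cytidine-rich RNA and DNA through KH domains and acts in transcription, splicing and translation, and in myeloid leukemia it is known as a gene lost in deletions of the long arm of its chromosome. HNRNPK (chr9:83968083-83980631) measured 893, 921, 864 and 820 CPM in shPTBP1 and 959, 1026, 826 and 869 CPM in shSCR. The groups overlapped and the log2 fold change was -0.07 (interval -0.23 to 0.08, edgeR adjusted p = 0.634). HNRNPK-201 took 49.7 ± 3.84% and 52.0 ± 3.81% of the counts and HNRNPK-202 32.8 ± 2.02% and 31.7 ± 2.42%. Both encode proteins from coding sequences of 1389 bases. A 15-base alternative splice site was used in 90.7 ± 1.34% of HNRNPK counts in shPTBP1 and in 92.0 ± 0.385% in shSCR, a difference of -1.30 points with overlapping groups (exact permutation p = 0.0571).

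HNRNPL binds CA repeats and is related in sequence to PTBP1. HNRNPL had 12, 24, 11 and 19 counts in shPTBP1 and 17, 8, 19 and 18 counts in shSCR, or 7.59, 15.9, 7.24 and 12.2 CPM against 10.4, 5.09, 12.7 and 11.5 CPM. The libraries of both groups were interleaved. The log2 fold change of 0.11 had an interval from -0.61 to 0.82 (edgeR adjusted p = 0.907), and its sign turned without shPTBP1 replicate 2 (-0.14) or without shSCR replicate 2 (-0.11). A change of this size was not detectable for HNRNPL at this depth. The share of HNRNPL counts on decay-annotated isoforms was 39.4 ± 15.2% in shPTBP1 and 44.1 ± 10.2% in shSCR, and no isoform of HNRNPL had enough counts for the isoform test. Its 5 isoforms with a mean share of at least 10% in a group, HNRNPL-201, HNRNPL-205, HNRNPL-212, HNRNPL-202 and HNRNPL-210, had 27, 27, 26, 17 and 14 counts in all.

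HNRNPM, an hnRNP with RNA recognition motifs that binds GU-rich sequence and regulates alternative exons, was the 1 gene of the 10 whose groups did not overlap. HNRNPM measured 163, 149, 165 and 139 CPM in shPTBP1 and 184, 202, 183 and 174 CPM in shSCR. All 4 shPTBP1 libraries lay below the lowest shSCR library, a pattern that 12.7% of all genes tested showed in 1 direction or the other. The log2 fold change was -0.27 (SE 0.080, interval -0.44 to -0.10), the unadjusted p was 0.00445 and the edgeR adjusted p was 0.0682, short of the limit. With genes limited to a mean of at least 50 counts, HNRNPM passed (log2 fold change -0.29, edgeR adjusted p = 0.0354), and over the remaining alternatives its adjusted p was 0.0703 to 0.194. The 2 main isoforms of HNRNPM (chr19:8444767-8489114, plus strand) differ by 117 bases, which HNRNPM-201 (16 exons, 730 codons) keeps within an exon and HNRNPM-202 (17 exons, 691 codons) removes as an intron. The segment lies at chr19:8465363-8465479 in hg38 and is printed in capitals, starting with GT and ending with AG, between 40 exonic bases on each side.
HNRNPM 117-base segment: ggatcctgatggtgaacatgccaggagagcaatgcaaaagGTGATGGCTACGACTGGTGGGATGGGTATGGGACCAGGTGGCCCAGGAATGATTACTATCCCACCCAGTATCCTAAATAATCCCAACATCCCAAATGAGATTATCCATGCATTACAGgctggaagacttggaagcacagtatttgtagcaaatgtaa
Its length is 39 codons, so both isoforms keep the reading frame.

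HNRNPM-201 took 46.1, 47.8, 42.8 and 48.8% of HNRNPM counts in shPTBP1 and 50.8, 53.1, 57.8 and 55.7% in shSCR. HNRNPM-202 took 51.2, 49.6, 53.6 and 50.2% in shPTBP1 and 46.8, 45.6, 41.5 and 42.8% in shSCR. The groups did not overlap for either isoform, as was the case for 10.7% of all isoforms tested, and the leading isoform was HNRNPM-202 in every shPTBP1 library and HNRNPM-201 in every shSCR library. The change was -7.99 percentage points for HNRNPM-201 and 6.97 points for HNRNPM-202 (two-sided exact permutation p = 0.0286 each), below the 10 points required of a call, and the adjusted p was 1.00 by diffSpliceDGE and 0.0795 by limma diffSplice for HNRNPM-201. In counts, HNRNPM-201 had 440 in shPTBP1 and 631 in shSCR, and HNRNPM-202 had 487 and 515. Inclusion of the 117-base segment was 47.9, 50, 46.0 and 49.8% in shPTBP1 and 51.8, 54.1, 58.2 and 56.7% in shSCR, 48.4 ± 1.87% against 55.2 ± 2.80% (SD, n = 4). This segment is the difference between the same 2 isoforms and is no separate evidence.

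HNRNPU (SAF-A), a large protein that binds chromatin-associated RNA through an RGG repeat and scaffold DNA through its SAP domain, measured 54.4, 54.8, 42.1 and 57.0 CPM in shPTBP1 and 72.5, 52.8, 72.0 and 78.3 CPM in shSCR. The 3 shSCR libraries other than replicate 2 were above every shPTBP1 library, and replicate 2 lay among the shPTBP1 libraries. The log2 fold change was -0.40 (SE 0.14, interval -0.70 to -0.11), the largest in size of the 10 genes, with an unadjusted p of 0.0114 and an edgeR adjusted p of 0.114. Without shSCR replicate 2 the log2 fold change was -0.51 and the adjusted p 0.0368, and over the other alternatives the adjusted p was 0.0696 to 0.297. A transcript of HNRNPU (chr1:244840638-244864560, minus strand) that GENCODE annotates as a retained intron, HNRNPU-202, keeps an intron of 84 bases at chr1:244862535-244862618. The intron is printed in capitals, with 40 exonic bases on each side, as the segment with the largest difference of the 10 genes.
HNRNPU 84-base intron: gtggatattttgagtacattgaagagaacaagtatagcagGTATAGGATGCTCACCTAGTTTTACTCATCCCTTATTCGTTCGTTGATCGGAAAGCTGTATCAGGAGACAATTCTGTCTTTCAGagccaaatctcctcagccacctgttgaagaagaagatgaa
It starts with GT, ends with AG and holds 1 stop codon in each of the 3 reading frames.

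This intron was retained in 28.1, 38.7, 20 and 26.4% of informative HNRNPU counts in shPTBP1 and in 14.0, 8.97, 18.4 and 17.1% in shSCR. All shPTBP1 libraries were above all shSCR libraries, by 13.7 percentage points in the mean (two-sided exact permutation p = 0.0286), over 57 to 105 counts per library. The closest libraries were shPTBP1 replicate 3 at 20% and shSCR replicate 3 at 18.4%. Of all 5891 segments 8.79% did not overlap, and this intron was picked for its difference, so the p is no separate evidence. HNRNPU-202 was the 1 counted transcript with the intron, with 16, 24, 12 and 19 counts in shPTBP1 and 13, 7, 16 and 18 in shSCR, so the counts themselves overlapped and the higher share stood against a lower gene total. As a share of all HNRNPU counts HNRNPU-202 took 21.9 ± 4.84% in shPTBP1 and 12.3 ± 3.11% in shSCR (adjusted p = 0.188 by diffSpliceDGE of edgeR). HNRNPU-205, a protein-coding isoform of 6827 nt, had 7, 6, 13 and 14 counts in shPTBP1 and 25, 38, 23 and 28 in shSCR. Its share was 8.14, 7.23, 20.3 and 15.7% against 21.2, 45.8, 21.3 and 23.0%. The groups did not overlap, as in 10.7% of all isoforms tested. However, shPTBP1 replicate 3 and shSCR replicate 1 differed by less than 1 point, and shSCR replicate 2 stood far above the rest.

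The change of HNRNPU-205 was -15.0 percentage points, with an adjusted p of 0.0581 by diffSpliceDGE, just short of a call, and 0.0257 by limma diffSplice, which called it. Without shSCR replicate 2 the change was -8.96 points (adjusted p = 0.419 by diffSpliceDGE of edgeR). The leading isoform HNRNPU-204 (3207 nt) took 40.7 ± 6.56% and 38.9 ± 4.60%. HNRNPU-204 and HNRNPU-202 are annotated to start 1454 and 1610 bases inside the start of HNRNPU-205 and to end 3109 and 3393 bases before its end, so these isoforms differ in length as well as in splicing. Counts on HNRNPU transcripts of at least 5000 nt were 12.0 to 25.6% of HNRNPU counts in shPTBP1 and 24.6 to 50.6% in shSCR. Over all genes, transcripts of at least 5000 nt held 4.04 to 4.28% of counts in shPTBP1 and 4.02 to 4.75% in shSCR, and the mean annotated length of counted transcripts was 1817 to 1883 nt and 1833 to 1903 nt. The part of read length in the isoform shares of HNRNPU was not tested.

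**Figure D2:**
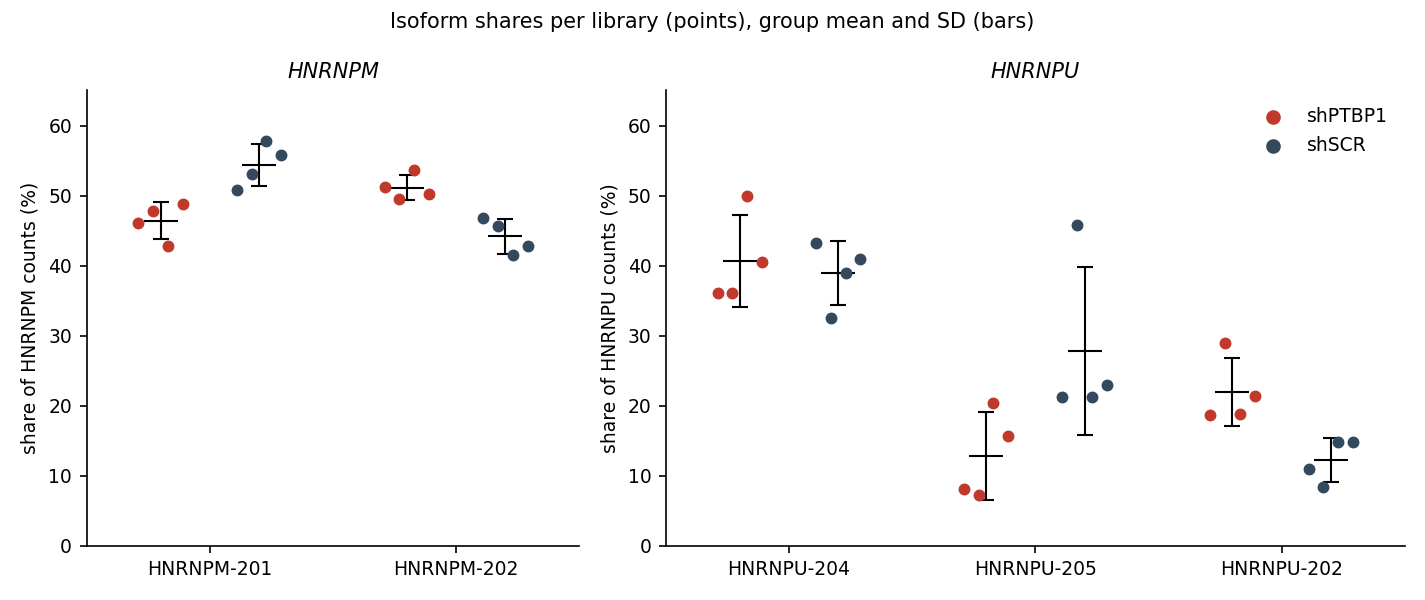
Share of counts (%) of the main HNRNPM and HNRNPU isoforms in each library (points) with the mean and SD of 4 libraries (bars). The groups do not overlap for HNRNPM-201, HNRNPM-202, HNRNPU-205 and HNRNPU-202, they overlap for HNRNPU-204, and 1 shSCR library at 45.8% stands apart for HNRNPU-205.

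**Figure D3:**
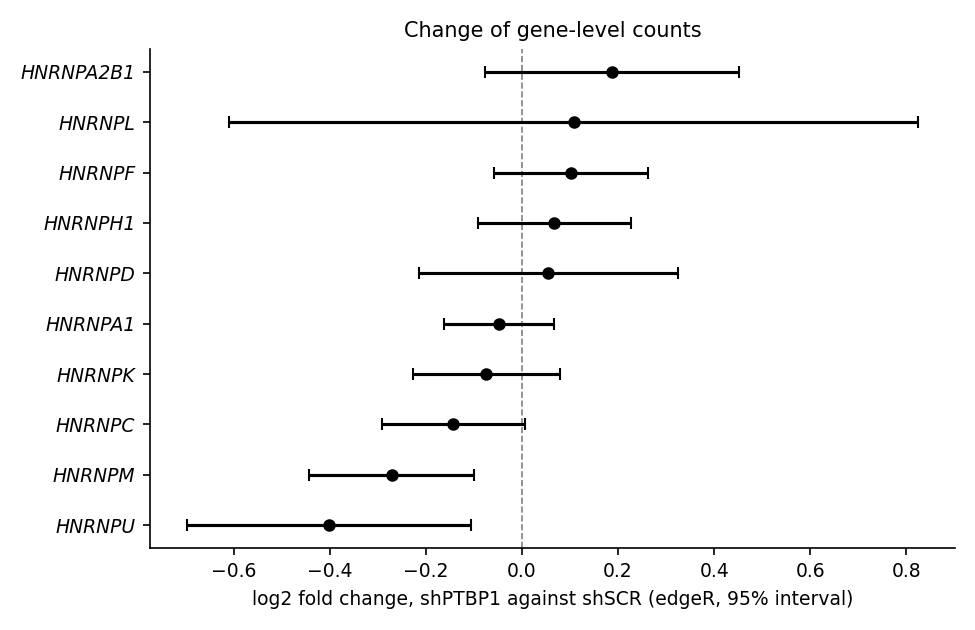
Log2 fold change of each hnRNP gene, shPTBP1 against shSCR, from edgeR (points) with its unadjusted 95% interval (bars). The intervals of HNRNPU and HNRNPM end below zero, those of the other 8 genes include it, and that of HNRNPL, the gene with the fewest counts, is the widest (-0.61 to 0.82).

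Over the 10 genes, 37 isoforms of 8 genes had enough counts for the test of isoform usage, and none of HNRNPD or HNRNPL. diffSpliceDGE called 0 of the 37 with the 2 limits of a call (adjusted p below 0.05, mean share at least 10 points apart), where it called 1.12% of all isoforms tested, and limma diffSplice called HNRNPU-205. At an unadjusted p under 0.05 diffSpliceDGE gave 2 hnRNP isoforms, HNRNPU-205 and HNRNPU-202, where 6.59% of all isoforms tested passed. The groups did not overlap in 5 isoforms (13.5%, against 10.7% of all isoforms tested), which were HNRNPM-201, HNRNPM-202, HNRNPU-205, HNRNPU-202 and HNRNPH1-220. In 33 of the 37 the mean share differed by less than 5 percentage points. The isoform with the most counts was the MANE Select transcript in 2 of the 10 genes, HNRNPM and, in a tie at 27 counts with HNRNPL-205, HNRNPL, and in 73.7% of the 7188 genes tested whose MANE Select transcript was in the table.

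Alternative internal segments (exons, parts of exons at alternative splice sites, and retained introns) could be followed in 8 of the genes, with 47 segments in all. They included 14 exons, 13 splice sites and 20 retained introns, and 21 of the 47 belonged to HNRNPA2B1 and 13 to HNRNPH1. The groups did not overlap in 2 segments, those of HNRNPM and HNRNPU, where 8.79% of all 5891 segments did not overlap. Of the 20 segments left with protein-coding transcripts alone, 1, that of HNRNPM, did not overlap. The HNRNPU intron could not be followed there, since HNRNPU-202, the 1 counted transcript with it, is not annotated as protein-coding. In HNRNPA2B1 the 21 segments differed by -2.89 to 2.90 points, and in HNRNPC the 5 segments by -0.19 to 0.78 points. The largest differences among the rest were those of HNRNPH1 (-8.38 to -0.63 points), whose segments rested on as few as 14 counts per library. Several segments of a gene are cut from the same transcripts and are not independent. With 1 library left out, the number of segments without overlap was 2 to 7: it was 4 without shPTBP1 replicate 1, 2 or 3 and 7 without shPTBP1 replicate 4.

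Decay-annotated isoforms (the GENCODE classes nonsense-mediated decay and retained intron) were followed in the 8 genes with such counts and at least 10 counts per library. None had groups that did not overlap, against 3.27% of 3428 genes. HNRNPU had the largest difference, with 39.5, 44.6, 23.4 and 29.2% in shPTBP1 and 21.2, 10.8, 25.9 and 21.3% in shSCR (two-sided exact permutation p = 0.0571). HNRNPM had 1.55, 2.21, 3.20 and 0.922% against 1.00, 0.629, 0.364 and 0.738% (exact permutation p = 0.0571), which rested on 27 counts of HNRNPM-214 in all. Each of these overlapped through 1 shPTBP1 library. HNRNPU did not overlap without shPTBP1 replicate 3 or without shSCR replicate 3, HNRNPM without shPTBP1 replicate 4 or without shSCR replicate 1, and HNRNPD, with 4 such counts, without shPTBP1 replicate 1. The share was 11.5 ± 0.628% and 11.1 ± 1.32% for HNRNPA1 and 3.08 ± 0.440% and 2.94 ± 0.263% for HNRNPH1, and at most 1.06% in any library for HNRNPC and 0.242% for HNRNPK.

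PTBP1 is known to bind pyrimidine-rich RNA that contains UCUU, so the 5 printed segments were searched for TCTT and for CTCTCT on both strands of the 200 bases centred on each. Within these windows TCTT occurred on the transcribed strand 2 times at the HNRNPC extension and 1 time at the HNRNPU intron. It occurred 0 times in the windows of the HNRNPM, HNRNPA2B1 and HNRNPD segments, where 70.1% of all 5891 windows held it. Most of the HNRNPD window was exon, and a TCTT in the printed bases upstream of that exon lay outside the window. CTCTCT occurred around none of the 5 on the transcribed strand, where 9.1% of all windows held it. On the opposite strand TCTT occurred 5 times at HNRNPU, 2 times at HNRNPA2B1, 1 time at HNRNPM and at neither of the others, where 62.5% of windows held it, and CTCTCT at none of the 5, where 6.79% held it. The motifs can overlap in the letters TCT. A match is a run of letters and no measure of binding.

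The remaining hnRNP proteins and their close relatives were read from the same fit. Of 28 such genes 20 were tested and edgeR called 0 in either direction, as did DESeq2 and limma-voom, with 2 at an unadjusted p under 0.05. Over all genes tested, edgeR called 5.54% in either direction and gave 19.2% an unadjusted p under 0.05. GRSF1, which binds guanine-rich RNA in mitochondria, measured 8.86, 9.25, 4.61 and 8.32 CPM in shPTBP1 and 15.98, 13.4, 14.0 and 14.1 CPM in shSCR. Its groups did not overlap, as in 12.7% of all genes tested (log2 fold change -0.88, SE 0.25, edgeR adjusted p = 0.0592). RBMXL1, a retrocopy of the splicing regulator RBMX that could share reads with it, had overlapping groups (log2 fold change 0.70, SE 0.25, edgeR adjusted p = 0.143). Over these 20 genes the log2 fold change had a median of 0.0033. Among genes whose products import hnRNP proteins into the nucleus or modify them, 10 of 11 were tested and edgeR, DESeq2 and limma-voom each called 0. In edgeR 2 of the 10 had an unadjusted p under 0.05, close to the 19.2% of all genes tested. PRMT6, a nuclear arginine methyltransferase, measured 73.6 to 86.0 CPM in shPTBP1 and 57.3 to 66.7 CPM in shSCR (log2 fold change 0.32, SE 0.097, edgeR adjusted p = 0.0725). MKNK1, a kinase of HNRNPA1 and of the cap-binding protein eIF4E, measured 15.8 to 20.4 CPM in shPTBP1 and 22.9 to 27.6 CPM in shSCR (log2 fold change -0.55, SE 0.17, edgeR adjusted p = 0.0756). TNPO1, the import receptor of HNRNPA1, was not called either (log2 fold change 0.24, edgeR adjusted p = 0.379). These 5 genes were named after their values were seen, since none was called.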

How the data were processed

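Per the labels, total RNA of 8 MOLM-13 cultures was turned into nanopore cDNA libraries. The authors aligned the reads to hg38 with minimap2, kept a mapping quality above 50, and deposited whole-number StringTie counts for each annotated transcript, without normalization, the one unit used. Tool versions and the annotation are not given in the sources used here. The authors also ran DESeq2, whose results were not used.

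Transcripts were assigned to genes, positions and classes in GENCODE v44, which held 252562 of 254070 by identifier. The 1508 others carried 0.0876 to 0.115% of the counts and were left out of genes. Counts per gene were normalized by TMM and tested with edgeR 4.0.16 (quasi-likelihood, filterByExpr with a minimum count of 10, group as the only term). Isoform usage was tested with diffSpliceDGE over 5464 transcripts. A call required a Benjamini-Hochberg adjusted p below 0.05, for isoforms also a change of 10 percentage points. Decay-annotated shares and segment inclusion (10 counts in every library, mean inclusion of 5 to 95%) were compared by two-sided exact permutation over the 70 regroupings of the libraries. Totals of 1528449 to 1613342 counts limit precision, and amplified cDNA molecules are not independent. Libraries of 1 group differed by more than counting error, with 2.12 to 3.94 times its squared differences per gene.

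The 10 genes and both further gene lists were chosen with earlier results of these data known. All 10 genes are named, with isoforms of a share of at least 10% and those whose groups did not overlap, and other listed genes where called (none was, and those named were chosen after their values were seen). Alternatives were DESeq2 1.42.0, limma 3.58.1 (voom, diffSplice), other size factors, filters, classes, depths and limits, the replicate number as a block, and leaving out each library. The scripts were checked on simulated counts. Sequences were read from hg38. Scripts ran in Python 3.11.15 (matplotlib 3.10.9, pandas 2.3.3, numpy 2.4.6) and R 4.3.3. Some genes of the marker lists are not reported here.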

Additional observations from a re-analysis of the deposited data

Results flagged for a closer look

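The highest and lowest library of each group of 4 were compared with the other 3 in 176 groups of values, which were the levels and decay-annotated shares of the 10 genes, their named isoforms, segments with at least 50 counts per library, PTBP1 and 4 genes of the further lists. A library stood apart from its group in 8 of them, by a gap test that marks about 1 in 20 groups by chance.

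HNRNPU-205 took 45.8% of HNRNPU counts in shSCR replicate 2, 38 of 83 counts, where the other shSCR libraries lay between 21.2 and 23.0%. Inclusion of a 286-base retained intron of HNRNPU was 4.76% in shPTBP1 replicate 3 and 13.1 to 13.9% in the other shPTBP1 libraries.

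In shPTBP1 replicate 2, HNRNPH1-220 took 2.71% of HNRNPH1 counts (others 1.44 to 1.62%). In the same library HNRNPL-201 took 29.2% of HNRNPL counts (others 5.26 to 9.09%, with 11 to 24 counts of the gene per library). HNRNPD-201, the MANE Select transcript of HNRNPD, was at 0% there (others 5.38 to 6.25%), and HNRNPA2B1-209 at 2.41%, or 2 counts (others 1.03 to 1.27%, 1 count each). In shSCR replicate 4, 2 overlapping segments of HNRNPA2B1 of 1172 and 1210 bases were both included in 40% (others 47.3 to 48.2%).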

How the results depend on the processing

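Depth limits HNRNPL most, and its isoforms could not be tested. The number of the 10 genes called was 0 with edgeR, DESeq2, limma-voom, DESeq2's size factors, no filter and the replicate block, and 1 (HNRNPM) with a mean of at least 50 counts. With each library left out it was 0 to 1, the call being HNRNPU without shSCR replicate 2. Isoforms called numbered 0, and 1 (HNRNPU-205) with limma diffSplice. Segments without overlap numbered 2 at either depth, 1 of 20 with protein-coding transcripts alone, and 2 to 7 with a library left out. Protein-coding transcripts alone leave out the HNRNPU intron in advance, so that setting does not test it. Genes with decay-annotated shares that did not overlap numbered 0 under other classes and depths and 0 to 1 with a library left out. The log2 fold change of HNRNPD reversed without shSCR replicate 2 (-0.013) or 4 (-0.0044), within a range of -0.013 to 0.18. That of HNRNPL reversed without shPTBP1 replicate 2 (-0.14) or shSCR replicate 2 (-0.11), within -0.14 to 0.26. The causes were not tested. Both further gene lists had 0 calls under every alternative run.

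Replicate numbers are shared between groups, but the deviations of same-numbered libraries from their group means correlated at -0.0328 to 0.00889 across genes, so the numbers were not read as pairing. With the replicate block 0 of the 10 genes and 0 isoforms were called (HNRNPM adjusted p = 0.0808, HNRNPU 0.145, HNRNPU-205 0.180, by edgeR).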
